A study of Mus musculus with 14 samples.

Results

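Chromatin accessibility at the promoters of the cytosolic ribosomal protein genes was followed in 4T1 cells, a mouse mammary tumour line, from normoxia to 72 h of hypoxia. The set was chosen by symbol alone. It took the protein-coding genes annotated on mm9 whose symbol is Rpl or Rps followed by a digit, with Rplp0 to Rplp2 and Rpsa, and without the Rps6k kinases and Rps19bp1. The rule gave 137 of 22238 protein-coding genes. Of these, 76 encode the canonical proteins of the ribosome and are called core members here (45 of the large and 31 of the small subunit), 8 are diverged paralogs, and 53 are copies whose symbol carries the suffix -ps, each annotated with a single exon.

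Bulk ATAC-seq, in which a transposase cuts open chromatin and adds sequencing adapters, had been run on 14 samples of fixed cells in 7 groups of 2. One group was the normoxic control, and the other groups spent 6, 12, 24, 36, 48 or 72 h at 1% O2. The labels give no oxygen level for the control, since their treatment text for these samples repeats the protocol for 1% O2. In the flow cytometry that accompanied this time course the control cells were kept in 5% oxygen, so normoxia here need not be the oxygen level of air. The labels do not say whether the 2 replicates were separate cultures. The 2 replicates of each group had been merged before peaks were called, so each condition was a single peak list and no test between conditions was possible. A fitted or tested difference is therefore not given, and the main counts of members stand beside the same count over all protein-coding genes. In bulk cells, fewer cells with an open promoter and a promoter that is less open in each cell cannot be told apart.

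A ribosome holds one copy of nearly every ribosomal protein, so these genes are transcribed strongly and at similar rates in all growing cells, mostly from short housekeeping promoters that often lack a TATA box. Their mRNAs start with a terminal oligopyrimidine (TOP) tract, a C followed by a run of pyrimidines, through which the kinase mTOR controls their translation. Low oxygen is known to lower mTOR activity and protein synthesis, largely at the level of translation. ATAC-seq reports the state of the promoter and not the translation of the mRNA.

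Sequences upstream of 4 core members are shown because these genes had the strongest and the weakest promoter peaks described here for which the run of 200 bases before the 5'-most annotated start holds the summits of 4 or more lists and no annotated exon. The runs end at the base before the start and are read 5' to 3' on the strand of the gene in NCBIM37, the assembly of mm9. They lie at chr15:5066413-5066612 (plus strand) for Rpl37, chr1:39424496-39424695 (plus strand) for Rpl31, chr17:56752618-56752817 (plus strand) for Rpl36 and chr1:16094744-16094943 (minus strand) for Rpl7. Capitals mark GGGCGG (the GC box), CCGGAAG (an ETS factor motif) and TATAAA (the TATA box) on either strand.
Rpl37: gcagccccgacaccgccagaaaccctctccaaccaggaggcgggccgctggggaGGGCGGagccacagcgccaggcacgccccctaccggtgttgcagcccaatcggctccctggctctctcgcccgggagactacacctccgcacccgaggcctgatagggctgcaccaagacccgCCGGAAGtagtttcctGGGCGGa
Rpl31: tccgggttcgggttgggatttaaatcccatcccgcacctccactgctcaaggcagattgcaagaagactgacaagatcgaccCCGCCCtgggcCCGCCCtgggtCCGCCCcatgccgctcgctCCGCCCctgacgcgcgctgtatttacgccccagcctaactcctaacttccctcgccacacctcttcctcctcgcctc
Rpl36: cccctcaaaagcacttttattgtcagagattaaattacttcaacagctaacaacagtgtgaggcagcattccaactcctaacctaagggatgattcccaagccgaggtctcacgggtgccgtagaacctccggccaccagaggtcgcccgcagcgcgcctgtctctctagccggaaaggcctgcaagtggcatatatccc
Rpl7: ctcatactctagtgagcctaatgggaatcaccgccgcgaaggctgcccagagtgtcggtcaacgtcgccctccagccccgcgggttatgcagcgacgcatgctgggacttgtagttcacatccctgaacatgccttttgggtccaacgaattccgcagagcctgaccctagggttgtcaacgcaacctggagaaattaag
The run of Rpl31 held 4 GC boxes and that of Rpl37 held 2 GC boxes and 1 ETS motif. The runs of Rpl36 and Rpl7 held neither motif, and TATAAA was absent from all 4. Each of the strongly enriched pair had 16 CG dinucleotides in its 200 bases, against 9 for Rpl36 and 13 for Rpl7. These 4 runs do not relate the letters to peak strength. Rpl15, the strongest core member, is not among them. Its longer promoter sequence, as searched below, held TATAAA and neither the GC box nor the ETS motif. Of other core members named below, Rps21 (strong) held both motifs, Rpl32 (weak) the ETS motif, and Rpl35 and Rpl23a (weak) neither. Rpl7 was weak in fold enrichment and not in summit reads. A match is a description of the letters and says nothing on binding.

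A C followed by a run of pyrimidines, as in a TOP tract, is visible at annotated starts of members from both ends of the range. Rps21 had one of the strongest promoter peaks, Rpl32 one of the weakest, and Rpl35a and Rpl10a were without a promoter peak at 6 h. The runs of 21 bases hold 5 bases before an annotated start and 15 after it, at chr2:179992077-179992097 (plus strand) for Rps21, chr6:115758750-115758770 (minus strand) for Rpl32, chr16:33056563-33056583 (plus strand) for Rpl35a and chr17:28465523-28465543 (plus strand) for Rpl10a. Capitals mark the pyrimidines from a C at the annotated start, or 1 base before it, to the end of the run.
Rps21: acccgCCCTCCTgcccaatag
Rpl32: cgcctCTTCCTTCTTCCTCgg
Rpl35a: ccttCCTCTTTCCgccatctt
Rpl10a: tctgCCTTCTTTCCggtttcc
At Rps21 and Rpl10a the run begins where the capitals do, and at Rpl32 and Rpl35a pyrimidines in lower case precede it. Only starts with such a run were taken for printing, so these examples do not relate the run to accessibility. Among strong promoters Rpl15, Rpl37 and Rpl31, and among weak ones Rpl36, Rpl35 and Rpl23a, had no such run at any annotated start.

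In each list, a promoter peak was a listed interval within 1000 bp of any annotated start of the gene, and where a gene had more than 1 interval the one with the highest −log10 q was used. Its strength is the fold enrichment that the peak caller gave for the summit (column 7 of the lists), which compares the reads at the summit with the local background. The lists held 49006 to 81732 peaks, and the background over the genome was 0.926 reads in normoxia and 1.85 to 3.25 reads in hypoxia, highest at 6 h. The 6 h list, with the highest background, also held the fewest peaks. At genes with a promoter peak in all 7 lists, its summit reads had a median ratio to normoxia of 1.125. The other times had 1.19 to 1.74. How far this set the comparisons at 6 h was not tested. The fewest reads that sufficed for a listed summit were 5 in normoxia, 11 at 6 h and 7 to 9 in the other lists. Fold enrichment is therefore compared within a list, or between lists only after scaling. For the identity of the cells, 6 of 7 epithelial markers had a promoter peak in all 7 lists, and Cldn7 had none in any list. The same held for 0 of 5 immune, 0 of 3 endothelial and 1 of 3 fibroblast markers.

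Nearly all core members had an accessible promoter at every time. A promoter peak was present in all 7 lists for 67 of 76 core members (88.2%), against 46.7% of all protein-coding genes. The other 9 core members (11.8%) had one in 4 to 6 lists, where 11% of all genes, or 19.1% of those with a promoter peak in any list, had one in 1 to 6 lists, and no core member lacked one throughout, against 42.2% of all genes. The small subunit was covered in all lists for 30 of 31 genes (96.8%), the exception being Rps28. The large subunit was covered in all lists for 37 of 45 genes (82.2%).

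List by list, the number of core members with a promoter peak stayed between 72 and 76 of 76. It was 75 in normoxia, where 51.2% of all genes had a promoter peak. After 6 h it was 72 (49.8% of all genes) and after 12 h 76 (54.4%). The later lists, in order of time, had 73 (52.7%), 75 (52.6%), 75 (53.2%) and 74 (51.2%). The counts therefore differed by at most 4 genes. The lowest count of core members and the lowest share of all genes thus fell in the same list, that of 6 h, and the highest of both in that of 12 h, which also held the most peaks. How far the number of peaks in a list set these counts was not tested.

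**Figure D1:**
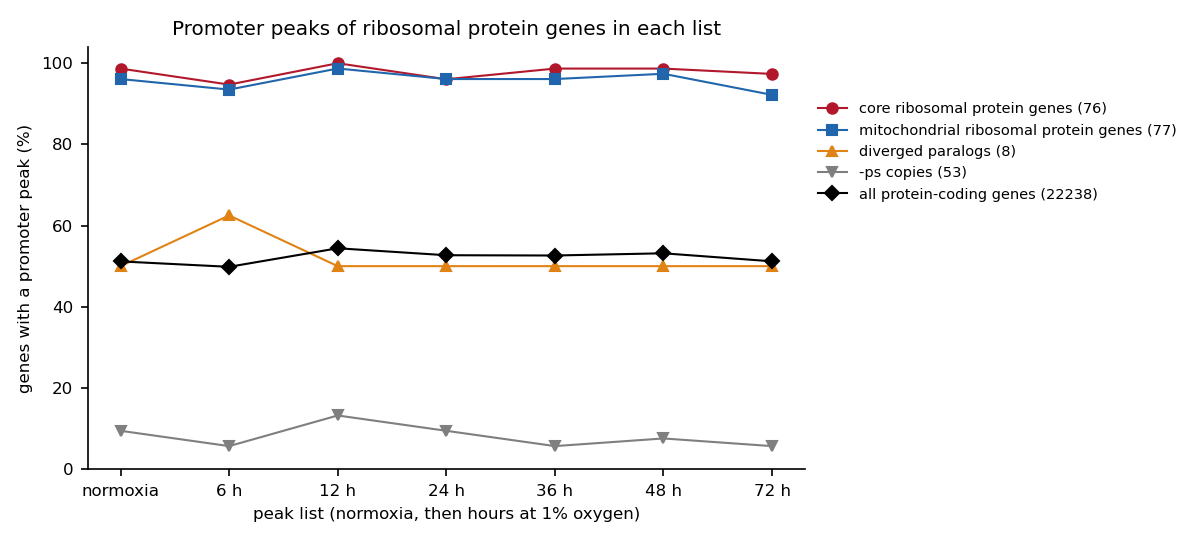
Share of genes with a promoter peak (vertical axis, %) in each of the 7 peak lists (horizontal axis, normoxia and hours at 1% oxygen), 1 point per gene list and peak list, with the number of genes in the legend. Core members stay between 94.7% and 100% and run close to the mitochondrial ribosomal protein genes, while all protein-coding genes stay between 49.8% and 54.4% and the -ps copies between 5.66% and 13.2%.

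Genes with related functions had promoter peaks about as often. The mitochondrial ribosomal protein genes (symbols Mrpl or Mrps followed by a digit), which encode the separate ribosome of the mitochondrion, had one in all 7 lists for 67 of 77 (87.0%). All 15 other TOP mRNA genes listed, such as those of elongation factors, were covered throughout, and so were 18 of 20 genes of ribosome biogenesis and rRNA synthesis. Of 12 genes of the mTOR pathway, 10 had one in all lists. Wide coverage was thus shared with these lists.

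The paralogs split into those that are accessible in every list and those that are not. Rpl7l1, Rpl22l1, Rpl36al and Rps27l, a paralog of Rps27 known as a p53 target, had a promoter peak in all 7 lists. Rpl3l, known from striated muscle, Rpl10l, known from testis, and Rpl39l had none in any list. The remaining paralog, Rps4y2, had a single peak at 6 h, with 13 summit reads, a fold enrichment of 3.29 and a width of 200 bp. The smallest summit in that list held 11 reads.

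The fold enrichment of Rps27l was 10.2 in normoxia and 12.0, 14.3, 15.2, 9.30, 12.9 and 9.78 at the 6 times in order (6, 12, 24, 36, then 48 and 72 h). Rpl22l1 lay between 8.61 and 11.3, and Rpl36al between 7.70 and 10.4. Rpl7l1 was the weakest of the 4, at 4.67 in normoxia and 4.00, 5.99, 5.97, 6.18, 6.82 and 6.25 at the 6 times. After the scaling described below, its ratio to normoxia was 1.10 to 1.59 over the 6 times. The normoxia value rested on 8 summit reads, and the interval of the read ratio, also described below, included 1 at every time.

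Of the 53 -ps copies, 45 had no promoter peak in any list. Rpl9-ps4 and Rpl7a-ps8 had one in all 7, Rpl21-ps13 in 6, Rps27a-ps2 in 4, Rpl31-ps4 in 3, and Rpl30-ps6, Rpl27-ps1 and Rpl21-ps7 in 1 each. Not 1 of the 53 had an annotated start that a peak covered, in any list. The same stricter count gave 65 of 76 core members (85.5%) and 41.5% of all genes covered in all 7 lists. The strong peak of Rpl9-ps4, with a fold enrichment of 9.64 to 15.1, had its summit at -1031 to -999 bp from the annotated start (negative, upstream), and that of Rpl7a-ps8 (4.73 to 8.70) at -976 to -789 bp. These intervals lie near the copies and not on them. Reads of low mapping quality had been removed, and in the 300 bases on each side of the start a median of 38.9% of the 31-base words of the -ps copies occur elsewhere in the genome, against 2.01% for core members and 0 for all genes. The part of this removal in the absence of peaks was not tested.

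The 9 core members without a promoter peak in some list were weak wherever they were listed. Rpl4 was listed 4 times, Rpl23 5 times, and Rpl6, Rpl8, Rpl10a, Rpl12, Rpl19, Rpl35a and Rps28 6 times each. All but Rps28 belong to the large subunit. Their listed summits held 7 to 26 reads, where the median over the 67 core members present in all lists was 33 to 59 reads. Their −log10 q lay between 1.32 and 15.3, and the median of the core members between 19.5 and 34.8. In the lists without a promoter peak, the nearest peak of any kind was 3361 to 11913 bp from an annotated start.

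Rpl12, a large-subunit protein at the base of the stalk, was the single core member listed at all 6 hypoxia times and absent in normoxia. It had 15, 21, 13, 13, 15 and 16 summit reads and a fold enrichment of 3.76, 4.82, 4.92, 4.35, 4.55 and 4.83 at the 6 times. The peak of Rpl12 at 6 h was the interval chr2:32817032-32817335, and the start of the gene lies 33 bp from that of Lrsam1 on the opposite strand. Of the 10859 genes without a promoter peak in normoxia, 3.19%, 7.78%, 5.66%, 5.89%, 6.34% and 4.87% had one at the 6 times. Rpl12 was the 1 core member that could be gained in this sense, and the same normoxia list enters all 6 comparisons.

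Rpl4, which lines the exit tunnel for the nascent chain, was listed in normoxia and at 12, 36 and 48 h with 7, 12, 13 and 13 summit reads. It was absent at 6, 24 and 72 h. Rpl23 had 12 reads in normoxia and 17, 12, 13 and 17 reads at 6, 12, 36 and 48 h, and was absent at 24 and 72 h. Neither gene followed the order of the times. In its 4 lists, the peak of Rpl4 had its summit at -417 to 272 bp from an annotated start, and Rpl23 at -113 to -33 bp.

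The remaining 6 were each absent from a single hypoxia list. Rpl10a was absent at 6 h and had 9 reads in normoxia and 18, 11, 16, 15 and 17 reads at 12 to 72 h. Rpl35a was also absent at 6 h and had 9 reads in normoxia and 15, 9, 17, 20 and 13 later. Rps28, a small-subunit protein at the mRNA exit, was the third absent only at 6 h, with 10 reads in normoxia and 17, 9, 14, 23 and 12 later. In normoxia these 3 genes had 9 or 10 reads, fewer than the 11 of the smallest summit listed at 6 h. Rpl8 was absent at 24 h, with 11 reads in normoxia. The 36 h list lacked Rpl6 (9 reads in normoxia) and the 48 h list Rpl19 (7 reads). Rpl6 reached 26 reads at 12 h, the highest count of the 9 genes.

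Counted against normoxia, 4 core members lacked at 6 h a promoter peak that normoxia had (Rpl10a, Rpl35a, Rpl4 and Rps28), which is 5.33% of the 75 listed in normoxia, against 5.64% of the 11379 genes listed there. At 12 h the count was 0 (1.1% of the 11379). The 24 h list lacked 3 (Rpl23, Rpl4 and Rpl8, 4%, against 2.43%) and the 36 h list 1 (Rpl6, 1.33%, against 2.78%). The 48 h list lacked 1 (Rpl19, 1.33%, against 2.14%) and the 72 h list 2 (Rpl23 and Rpl4, 2.67%, against 4.6%). The counts of core members thus lie near the background at all 6 times. All of them rest on peaks of few reads in single lists.

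**Figure D2:**
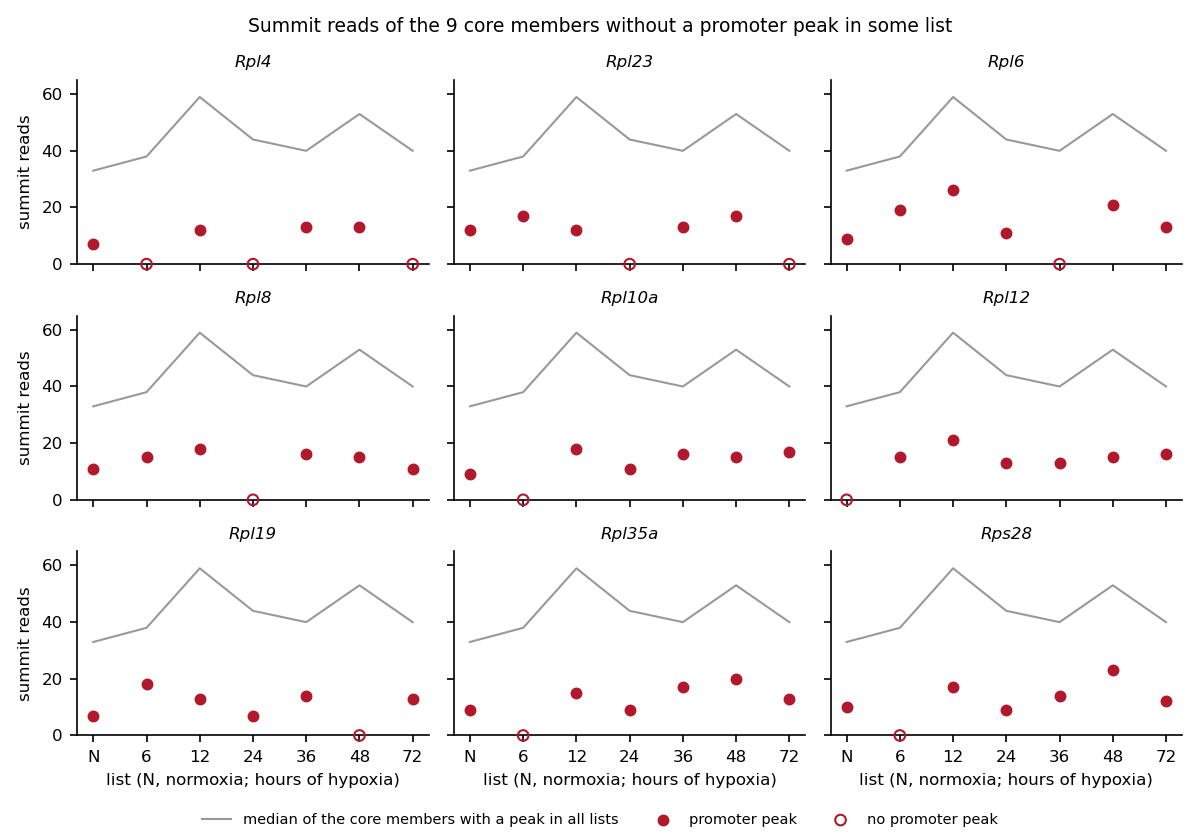
Summit reads (vertical axis) of the 9 core members that lacked a promoter peak in some list, by list (horizontal axis, N for normoxia and hours of hypoxia). Filled points are listed peaks, the grey line is the median of the core members with a peak in all lists (33 to 59 reads), and open circles on the axis mark lists without a promoter peak, not a read count of 0. Filled points lie between 7 and 26 reads, below the grey line in every list.

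Where a promoter peak was present in all lists, the core members were of ordinary strength. Their median fold enrichment was 8.75 in normoxia and 7.06, 8.70, 8.50, 7.67, 8.36 and 7.70 at the 6 times. The 10393 genes of any kind with a promoter peak in all 7 lists had medians of 9.51, 7.23, 9.74, 9.52, 8.70, 9.03 and 7.89. The core median was the lower of the pair in each of the 7 lists. Expressed as a percentile among all promoter peaks of the same list, the core median lay between 43.0 and 52.2, and that of the 10393 genes between 53.1 and 56.7. The genes below the median of their list in all 7 lists made up 17 of 67 core members (25.4%) and 23.8% of the 10393 genes, and those above it in all 7 lists made up 11 of 67 (16.4%) and 34.9%. The mean percentile over the lists was under 50 for 36 core members (53.7%) and 44.5% of the 10393 genes. It was under 25 for 13.4% and 15.1%, and over 75 for 11.9% and 25.1%. The difference in the medians thus goes with fewer strong promoters and more below the middle, and not with more at the weak end.

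Summit reads and widths followed the same order. The core median was 33 reads in normoxia and 38, 59, 44, 40, 53 and 40 reads at the 6 times, against 37, 42, 67, 51, 48, 58 and 45 reads over all genes. The median width was 586 bp in normoxia and 605, 841, 792, 742, 765 and 641 bp at the 6 times, against 726, 700, 895, 824, 783, 810 and 721 bp over all genes. The 12 h list had the highest median of each. Large- and small-subunit genes had list medians of fold enrichment of 6.59 to 8.84 and 7.16 to 8.77, which overlap almost fully. They differed at the strong end, as counts without a test. Above the median of their list in all 7 lists were 10 of 37 large-subunit genes (27.0%) and 1 of 30 small-subunit genes (3.33%). Below it in all 7 were 11 (29.7%) and 6 (20%). The mean percentile of fold enrichment was over 75 for 18.9% and 3.33%, and under 25 for 16.2% and 10%. The mitochondrial ribosomal protein genes had 7.09 to 10.3 and the 15 other TOP mRNA genes 9.59 to 11.9.

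The medians of single core members over the 7 lists ran from 3.23 to 13.8. The strongest was that of Rpl15, with a fold enrichment of 15.3 in normoxia and 12.5, 13.9, 13.8, 13.5, 14.0 and 13.2 at the 6 times, on 67 to 138 summit reads. Its percentile among the promoter peaks of a list was 92.7 or higher throughout. Its normoxia peak, chr14:19103269-19104010, also holds the start of Nkiras1, which lies 69 bp from a start of Rpl15 on the opposite strand. Rpl37, whose upstream run is printed above with its GC boxes, came next among the core members at 14.5 in normoxia and 12.0, 13.3, 12.2, 13.1, 11.9 and 11.2 at the 6 times. Rpl31 had 14.5, 9.57, 14.4, 15.1, 12.2, 11.4 and 11, and Rps21 had 12.0, 10.6, 11.2, 10.3, 12.0, 11.4 and 13.3 in the same order. The copy Rpl9-ps4, with its distant peak, had the next highest mean rank after Rpl15.

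The weakest promoter present in every list was that of Rpl36. Its fold enrichment was 3.76 in normoxia and 3.63, 3.66, 2.67, 3.22, 2.95 and 3.23 at the 6 times, on 22 to 37 summit reads over a local background of 5.12 to 9.86 reads. Its percentile in the lists was 0.137 to 6.76. Rpl7 had 4.77, 4.46, 4.57, 4.04, 5.25, 5.26 and 4.88, but its summits held 62 to 107 reads, more than those of most core members, over a local background of 12.2 to 22.6 reads. Low fold enrichment thus went with a high local background for Rpl7 and not with few reads. Rpl35 had 4.02 to 6.21, Rpl23a 3.53 to 7.11 and Rpl32 4.17 to 6.59. Rpl35 and Rpl23a are neighbours at the exit of the nascent chain tunnel.

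**Figure D3:**
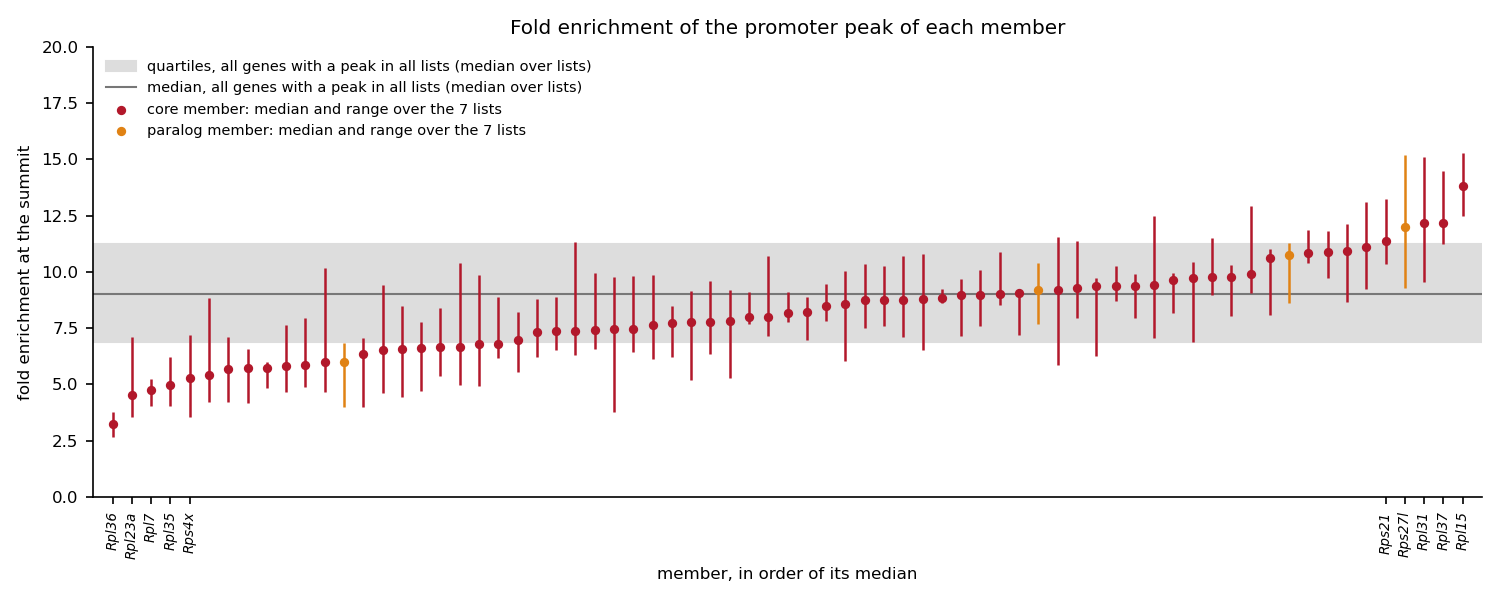
Fold enrichment at the summit (vertical axis) for each core member and paralog with a promoter peak in all 7 lists (horizontal axis, ordered by median); points are medians and vertical lines the range over the 7 lists, and the 5 members at each end are named. The grey band and line give the quartiles and median of all genes with a promoter peak in all lists; Rpl36 stands lowest (median 3.23) and Rpl15 highest (median 13.8).

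Among the widest peaks were those of Rpl7 (1091 to 1685 bp), Rps29 (1125 to 1351 bp), the paralog Rpl36al (812 to 1450 bp) and Rpl30 (881 to 1271 bp). The peak of Rpl7 spanned the start of Rdh10, a retinol dehydrogenase gene 1112 bp away on the opposite strand, and at 24 h its summit moved to -1105 bp from the start of Rpl7. Among the narrowest were those of Rpl36 (237 to 484 bp), Rps15 (313 to 558 bp) and Rpl11 (277 to 684 bp). The ranges of these wide and narrow peaks did not overlap, which follows from how they were chosen.

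The 3 proteins of the ribosomal stalk, which recruits the elongation factors, had promoters in the middle of the range. Rplp0 had a fold enrichment of 7.14 in normoxia and 7.56, 8.01, 8.51, 10.7, 8.70 and 7.38 at the 6 times. Rplp1 lay between 7.51 and 10.4 and Rplp2 between 5.54 and 8.20. Rpsa, a small-subunit protein also known as the laminin receptor, lay between 8.54 and 10.9.

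Summits of core members sat close to the annotated start and on its upstream side. The median distance between summit and nearest start was 48 to 66 bp over the lists, against 74 to 86 bp for all genes with a promoter peak in all lists. The summit was within 100 bp of a start for 68.7% to 77.6% of the core members (all genes 56.1% to 61.6%) and beyond 500 bp for 0% to 2.99% (all genes 8.16% to 10.1%). It was upstream for 76.1% to 88.1% of the core members, where all genes had 72.2% to 74.6% and the mitochondrial ribosomal protein genes 64.2% to 67.2%. Close summits were shared with the mitochondrial set, in which 73.1% to 82.1% lay within 100 bp. Core members have a median of 4 annotated starts and the 10393 genes a median of 3, and the part of this in the distances was not tested.

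**Figure D4:**
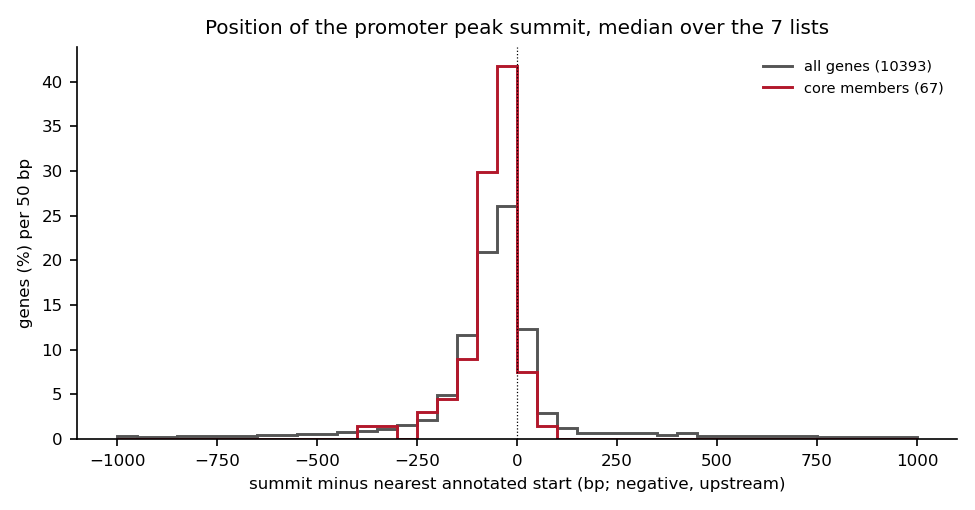
Share of genes (vertical axis, %) by position of the promoter peak summit relative to the nearest annotated start (horizontal axis, bp, bins of 50 bp, negative upstream), as the median over the 7 lists, for 67 core members and 10393 genes of any kind. The 2 bins just upstream of the start hold 41.8% and 29.9% of the core members and 26% and 21% of all genes.

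Several core members shared their promoter peak with a neighbour, and none shared it with another member. In all 7 lists the strongest promoter peak was also a promoter peak of a gene on the opposite strand for 8 of 67 core members (11.9%), against 20.5% of the 10393 genes and 38.8% of the 67 mitochondrial ribosomal protein genes. These were Rpl15 (Nkiras1), Rpl18 (Sphk2), Rpl7 (Rdh10), Rpl7a (Med22), Rpl9 (Lias), Rps25 (Trappc4), Rps27 (Rab13) and Rps27a (1700034F02Rik), and the same held for the paralog Rpl36al (Mgat2). The starts of these pairs were 44 to 166 bp apart except for Rpl7 and Rdh10. Rps18 shared its peak with Vps52 in 6 lists. The 9 core members present in all lists with a shared peak had a median fold enrichment of 8.58 and the 58 without had 8.0. Rpl12, Rpl35a, Rpl4 and Rps28, each missing in some list, also have a divergent neighbour, namely Lrsam1, Iqcg, Zwilch and Ndufa7. At these promoters the reads of a peak cannot be assigned to either gene.

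The promoter sequence of core members, taken from 250 bases before to 50 after the 5'-most start, was rich in CpG without being rich in G and C. The ratio of observed to expected CpG had a median of 0.850 over the 76 core members, against 0.536 over all genes and 0.772 over the 10393 genes with a promoter peak in all lists. Their median G and C content was 55.5%, against 55.3% over all genes and 60.7% over the 10393. The ETS motif CCGGAAG stood in 22 of 76 (28.9%), against 10.8% of all genes and 18.6% of the 10393, and the mitochondrial set had it in 35.1%. The GC box GGGCGG stood in 47.4%, against 43.5% and 64.3%. TATAAA stood in 11.8%, against 13.4% and 6.92%. Motifs were searched on both strands. Against open promoters in general, the ETS motif was thus more frequent in core members and the GC box less so, as counts without a test. These shares hold for the 5'-most start alone, where core members have a median of 4 annotated starts and the 10393 genes 3. Other starts were not searched for them.

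A palindrome of 10 bases around 2 CG pairs stood in 5 of 76 core promoters (6.58%), among them Rpl17, Rpl26, Rps28 and Rps6, against 0.607% of all genes, 1.12% of the 10393 genes and 0% of the mitochondrial set. These genes were named after their values had been seen. The windows of 30 bases of Rpl26, Rps28 and Rps6 are shown because this was, of the motifs searched, the one with the highest ratio of its share in core members to that in all genes. They lie at chr11:68715032-68715061 (plus strand) for Rpl26, chr17:33961489-33961518 (minus strand) for Rps28 and chr4:86503303-86503332 (minus strand) for Rps6, and capitals mark the palindrome.
Rpl26: gctccgagacTCTCGCGAGAtctcgcggca
Rps28: ccgcgtgcggTCTCGCGAGAgcgaaagtga
Rps6: cgccggctgtTCTCGCGAGAacttagagcg
These genes did not share a level of accessibility. The fold enrichment of Rps6, the substrate of S6 kinase downstream of mTOR, was 8.60 to 9.24 in the 7 lists (scaled ratio to normoxia 0.974 to 1.32), that of Rpl26 was 3.76 to 9.78, and Rps28 was without a promoter peak at 6 h.

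The core of the hypoxia response element, ACGTG or GCGTG on either strand, stood in 52 of 76 core promoters (68.4%). All genes had it in 48.1% and the 10393 genes with a promoter peak in all lists in 64.4%, so the share in core members was near that of open promoters in general. A C followed by 4 or more pyrimidines at or next to any annotated start was found for 36 of 76 core members (47.4%), against 15.1% of all genes and 20.1% of the 10393. Counted by start, to allow for genes with many starts, it was found at 16.8% of 333 core starts and at 5.70% of all starts. At the 5'-most start alone it was found for 7.89% of core members and 6.00% of all genes. The tract was thus seen at starts inside the annotated range more often than at its edge.

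Against normoxia, fold enrichment at the 67 core promoters is given relative to that of all promoters. Each ratio was divided by the median ratio over the 10393 genes, which was 0.781, 0.998, 0.989, 0.916, 0.937 and 0.840 at the 6 times. After this scaling the median ratio of the core members was 1.08, 0.975, 0.965, 0.994, 1.02 and 1.04. It was over 1 for 39, 30, 24, 33, 36 and 44 of the 67. Without scaling, the median over the 73 members present in all lists was 0.856, 0.990, 0.959, 0.926, 0.981 and 0.878, below 1 at every time. With scaling, the median over the same 73 was 1.10, 0.992, 0.970, 1.01, 1.05 and 1.04, so its side of 1 at 6, 36, 48 and 72 h depends on the scaling. The same ratio from summit reads, also scaled, had core medians of 0.938, 0.916, 0.905, 0.892, 0.958 and 0.977. No direction is therefore given for the core members as a group. For the mitochondrial set the scaled ratio of fold enrichment was 0.931, 1.01, 0.982, 0.967, 1.00 and 0.984.

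Few members passed a ratio of 1.5 in either direction, and no member passed a ratio of 2. At 6 h, 5 of the 73 members were past 1.5-fold higher (2.6% of all genes) and 5 past 1.5-fold lower (4.76%). The 12 h list had 2 higher (5.38%) and 0 lower (0.674%), and the 24 h list 1 higher (4.01%) and 2 lower (2%). The 36 h list had 4 higher (3.35%) and 2 lower (2.68%). The 48 h list had 4 higher (3.96%) and 0 lower (2.19%), and the 72 h list 5 higher (3.66%) and 0 lower (4.34%). The balance of the sides depended on the scaling. Without scaling there were 0 higher and 14 lower at 6 h (0.298% and 22.5% of all genes), 0 and 2 at 24 h (3.65% and 2.13%), 4 and 4 at 36 h (1.82% and 5.37%), 1 and 1 at 48 h (2.39% and 3.99%) and 2 and 6 at 72 h (1.07% and 14.1%). Scaled by the 36113 regions shared by all lists there were 6 and 3 at 6 h (3.579% and 3.599% of all genes). With the same scaling there were 0 and 2 at 24 h (2.915% and 2.694%). There were 1 and 1 at 48 h (2.733% and 3.666%) and 4 and 0 at 72 h (3.329% and 4.695%). All 6 comparisons share the normoxia list, and agreement between times is no independent evidence.

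Rps26, a small-subunit protein that contacts the mRNA near its exit, was the single member past 1.5-fold in the same direction at 4 or more times, where 1.85% of all genes were past it on the higher side and 0.452% on the lower side. Its fold enrichment was 6.90 in normoxia and 8.37, 9.97, 9.84, 10.4, 9.71 and 9.50 at the 6 times, so normoxia was the lowest of the 7 lists. The scaled ratios were 1.55, 1.45, 1.44, 1.65, 1.5 and 1.64. Its summits held 27 reads in normoxia and 39, 63, 37, 47, 59 and 48 reads in hypoxia. The scaled ratio of these reads was 1.02 to 1.49, and its exact conditional binomial interval (95%, counting error only) included 1 at all 6 times, as at 72 h with 0.914 to 2.49. The summit sat at -386 to -329 bp from the single annotated start, and the normoxia peak, chr10:128063641-128064207, did not reach the start.

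In all, 11 of the 73 members had a scaled ratio over 1 at all 6 times (15.1% of all genes did) and 8 had one under 1 at all 6 (14.4%). The 11 were Rpl10, Rpl13, Rpl28, Rpl30, Rplp0, Rps9, Rps25, Rps26 and Rpsa with the paralogs Rpl7l1 and Rps27l. Among the 8 were Rpl3, Rpl17, Rpl24, Rpl39, Rps3a, Rps15a and Rps27.

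Rpl3, which reaches towards the peptidyl transferase centre, had its highest fold enrichment in normoxia. It was 10.4 there and 5.17, 8.70, 6.68, 4.97, 7.54 and 5.96 at the 6 times, with scaled ratios of 0.637, 0.838, 0.649, 0.522, 0.774 and 0.682. Its summits held 25 reads in normoxia and 21, 31, 18, 15, 26 and 20 reads in hypoxia. The interval of the read ratio lay below 1 at 36 h (0.474, interval 0.232 to 0.935) and included 1 at the other 5 times.

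Rpl11, which with Rpl5 and 5S rRNA binds Mdm2 when ribosome assembly fails, had a fold enrichment of 8.57 in normoxia and 4.23, 8.84, 4.57, 4.97, 5.40 and 7.38 at the 6 times. It was past 1.5-fold lower at 6, 24 and 36 h (0.632, 0.539 and 0.633), and at 12 and 72 h it was at 1.03 and 1.02. At 6 h its summit held 17 reads, as in normoxia, while the local background used by the peak caller was 3.25 reads at 6 h and 1.10 in normoxia. Every interval of its read ratio included 1. The 3.25 reads were the background over the genome of the 6 h list, and not a value of this promoter. With equal reads, the lower fold enrichment at 6 h follows from this background by definition and is no separate observation.

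The other members at the extremes changed from time to time. At 6 h the highest were Rpl28 (1.60) and Rps26, and the lowest Rpl26 (0.578, from 8.33 to 3.76) and Rpl11. The intervals of the read ratio of Rpl28 (0.740 to 2.01) and Rpl26 (0.281 to 1.16) included 1. At 12 h the highest were Rpl7a (1.64, from 5.74 to 9.40) and Rpl13 (1.55), and the lowest Rpl24 (0.772) and Rpl13a (0.784). At 24 h the highest were Rps27l (1.51) and Rpl7a (1.5), and the lowest Rpl11 and Rpl3. No member had an interval above 1 at 24 h. Rpl7a was at 1.65 at 36 h and 0.961 at 72 h. Its reads, 13 in normoxia and 23, 43, 24, 36, 22 and 18 later, gave a ratio whose interval lay above 1 at 12 and 36 h. Its ratio was thus highest at 12 and 36 h and below 1 at 72 h. At 36 h Rpl23a was highest (1.71), from 4.55 to 7.11, followed by Rps26, and Rpl3 and Rpl11 were lowest. Rpl23a is among the weakest promoters, and its 15 and 30 summit reads gave an interval of 0.824 to 3.16.

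At 48 h the highest were Rpl13 (1.68) and the paralog Rpl7l1 (1.56), and the lowest was Rpl11 (0.672). For each of them the interval of the read ratio included 1, as for Rpl13 with 0.868 to 3.33. At 72 h the highest were Rps9 (1.82, from 6.43 to 9.81) and Rps12 (1.8, from 6.53 to 9.84), and the lowest was Rpl3. Rps9 had 26 reads in normoxia and 51 at 72 h, with an interval of 1.01 to 2.76, and Rps12 had 49 and 75, with an interval of 0.886 to 1.88.

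**Figure D5:**
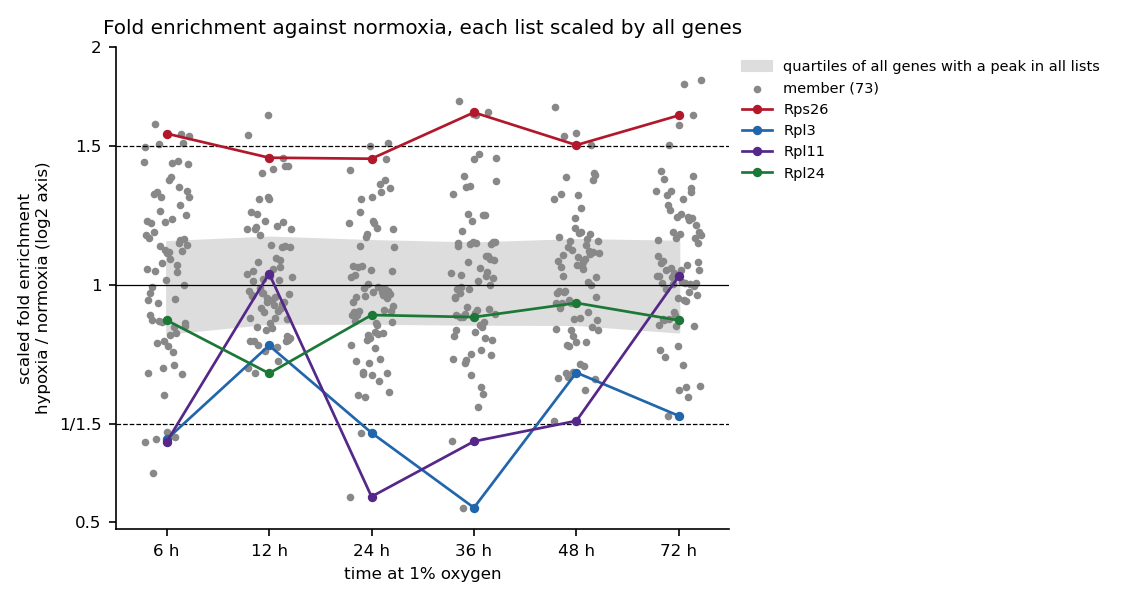
Scaled ratio of fold enrichment, hypoxia over normoxia (vertical axis, log2 spacing), at each time at 1% oxygen (horizontal axis); grey points are the 73 members with a promoter peak in all lists, the grey band gives the quartiles of all such genes, and dashed lines mark 1.5-fold. Rps26 (1.44 to 1.65) runs above the band and Rpl3 (0.522 to 0.838) below it, Rpl24 stays between 0.772 and 0.948, and Rpl11 crosses from 0.539 to 1.03.

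Read counts gave a partly different order. Over the 73 members and 6 times, the interval of the read ratio lay clear of 1 in 24 of 438 cases. On the higher side there were 2 members after 6 h (3.69% of all genes), and in the later lists 2 (3.73%), 0 (3.94%), 2 (3.55%), 1 (4.27%) and 1 (4.9%). On the lower side there were 4 after 6 h (5.02%), and later 2 (5.46%), 2 (3.7%), 4 (4.08%), 2 (5.17%) and 2 (4.47%). Of the 16 cases on the lower side, 11 belonged to Rpl27a and Rpl24, which were picked out after their values had been seen. The read ratio of Rpl27a was 0.680 to 0.762 and clear of 1 at all 6 times, from 108 reads in normoxia and 86, 143, 108, 102, 111 and 89 later. That of Rpl24, a large-subunit protein at the subunit interface, was 0.572 to 0.799 and clear of 1 at all times but 24 h, from 101 reads in normoxia and 65, 117, 109, 85, 112 and 80 later. Over all genes, 0.577% were clear of 1 on the lower side at 5 or more times. The fold enrichment of Rpl27a barely moved, at 11.8 in normoxia and 10.4 to 11.1 later, with scaled ratios of 0.884 to 1.17, and its local background was 8.20 reads in normoxia and 7.06 to 12.8 reads later. The 108 reads of Rpl27a were the highest normoxia count of any core member, and the interval narrows as the count rises.

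Across the 7 lists, the scaled fold enrichment of a core member varied with a median standard deviation of 0.19 on the log2 scale, against 0.18 for all 10393 genes. Rpl21 varied least (0.07) and Rpl11 most (0.40). Spread between replicates cannot be given, since the replicates of a group were pooled, and the spread over lists includes both time and error.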

How the data were processed

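ATAC-seq of fixed 4T1 cells was taken from 7 deposited narrowPeak lists, 1 for each group of 2 samples named by the labels. Processing by the authors is taken from their methods and from the submitters' notes. Trimmed reads had been mapped to mm9 (Bowtie2 2.1.0) and kept where both mates were properly paired and the alignment quality was high. Duplicates (Picard 1.79) and mitochondrial reads had been dropped, and the replicates joined, before MACS2 called narrow peaks; the MACS2 version is not given in the sources used here. In the deposited lists, column 7 is a fold enrichment (the ratio of reads at the summit over the local background, with 1 added to both), and columns 8 and 9 are −log10 p and −log10 q values, the lowest −log10 q being 1.30 to 1.31. The depth of the samples is not given by the lists, so summit reads and local background were recovered from columns 7 and 8, with which all summits agreed to within 0.000352 in −log10 p.

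Peaks were assigned in Python 3.11.15 (pandas 2.3.3, numpy 2.4.6, scipy 1.17.1; figures with matplotlib 3.10.9) to protein-coding symbols of GENCODE on NCBIM37, which is mm9, within 1000 bp of any annotated start. Chromosome names and lengths held all peaks on 21 of 21 chromosomes. Ratios to normoxia were scaled by the median over all genes with a promoter peak in all 7 lists. Instead of a test, a ratio of 1.5 was counted beside its share over all genes. Read ratios have an exact conditional binomial 95% interval, which covers counting error only, since reads are not independent molecules. The steps were tested on simulated data.

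Named members were those without a promoter peak in some list, the 5 highest and 5 lowest by mean rank of fold enrichment and of width, the 2 highest and 2 lowest ratios at each time, those past 1.5-fold at 4 or more times, and others marked in the text; a few members that this rule names are not reported here. The members and gene lists were chosen with earlier results of these data known. Alternatives were other promoter distances (500 and 2000 bp), only the 5'-most start, the summit within the window, a −log10 q of 2 or 5, the 20000 strongest peaks of each list, the nearest or widest peak, other scalings, summit reads, ranks, a ratio of 2 and each list left out. Added after seeing the data were a peak that covers a start, leaving out normoxia, and ratios of core members alone. Protein sequences were not used here.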

Additional observations from a re-analysis of the deposited data

How the results depend on the processing

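No paired analysis was possible because the 2 replicates of each group had been merged before the lists were made. For the same reason no replicate could be left out, and each list rests on 1 pooled library pair whose error is unknown. Of the values under an alternative, 191 moved by less than the limits used and 39 by more. The number of core members with a promoter peak in all 7 lists, 67, was 64 to 67 under the other promoter distances, with the 5'-most start, with the summit in the window, with a start covered and at a −log10 q of 2, 60 at a −log10 q of 5, and 67 to 70 when a list was left out, 70 being without 6 h. With the 20000 strongest peaks of each list it was 31 (40.8%, all genes 25.2%). There, of all members, 35 had a peak in all lists and 102 lacked one in some list, and the counts were 50 in normoxia and 51, 48, 43, 48, 47 and 51 at the 6 times. With core members only, 9 lacked one in some list. The cause of these shifts was not tested.

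The median ratio over the members, 1.10, 0.992, 0.970, 1.01, 1.05 and 1.04 at the 6 times, was 0.856, 0.926 and 0.878 at 6, 36 and 72 h without scaling. From summit reads it was 0.974, 0.912, 0.910 and 0.981 at 6, 24, 36 and 72 h. It was 1.16 at 6 h from rank percentiles and 0.942 at 12 h when scaled by the 36113 regions shared by all lists. The number of members past 1.5-fold in either direction, 10, 2, 3, 6, 4 and 5 at the 6 times, was 0 at all 6 with a ratio of 2 and 32, 17, 26, 26, 23 and 28 with rank percentiles, where 25.9% to 30.2% of all genes were past it. From summit reads it was 4 at 12 h (11.7% of all genes) and 7 at 24 h (14.1%). With shared regions it was 1 at 12 h (5.14%) and 2 at 48 h (6.40%). With the peak nearest to a start it was 5 at 24 h (9.43%) and 8 at 48 h (10.2%). Without scaling it was 2 at 48 h (6.38%) and 8 at 72 h (15.2%). Without scaling the 5 higher and 5 lower at 6 h became 0 and 14, where all genes had 0.298% and 22.5%. The 5 and 0 at 72 h became 2 and 6 (1.07% and 14.1%). The causes of these differences were not tested either.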
